A study of Mus musculus with 8 samples.

Results

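The 4 receptors for immunoglobulin G of the mouse (Fcgr1, Fcgr2b, Fcgr3 and Fcgr4), their shared signalling chain Fcer1g and the Fc receptor-like gene Fcrls were followed in murine macrophages (Mϕ). The members were taken by gene symbol, after the Ensembl identifiers had been named from GENCODE vM39, and all 6 were found among the 55359 genes listed. M-CSF and GM-CSF, each at 20 ng/mL, were the growth factors for these bone-marrow-derived Mϕ (BMDMs), whose source was the femoral marrow of wildtype C57BL/6 animals, adults of both sexes. Total RNA was sequenced in 4 groups with 2 samples each. Ctrl Mϕ were untreated (naïve), and LPS Mϕ were stimulated over 6 h with LPS at 100 ng/mL together with IFNγ at 100 U/mL. Eff Mϕ were kept for 16 h with apoptotic NIH-3T3 caspase-activatable (CA) cells (ratio 1:5) and 10 nM dimerizer and then washed (efferocytic). LPSEff Mϕ received the same co-culture followed by the same LPS/IFNγ stimulation. NIH-3T3 CA cells are fibroblasts of a single clone (D10) carrying a caspase-8 domain that the dimerizer activates, and CD45-positive cells were isolated with magnetic beads before RNA isolation. The samples held between 3481288 reads (Ctrl replicate 1) and 12020918 reads (Ctrl replicate 2). The sources do not state that the samples of a group came from separate animals or cultures, so p-values measure only the spread between these samples, which may be technical.

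Fcγ receptors let Mϕ bind antibody-coated particles and immune complexes. Fcgr1, Fcgr3 and Fcgr4 encode activating receptors that reach the surface and signal together with the γ-chain dimer encoded by Fcer1g, whose ITAM recruits the kinase Syk after phosphorylation by Src family kinases. Fcgr2b encodes the single inhibitory receptor, which carries an ITIM of its own and recruits the phosphatase SHIP1. Fcrls encodes an Fc receptor-like protein with a scavenger receptor domain and is best known as a marker of microglia. The balance of activating and inhibitory receptors sets the threshold at which immune complexes trigger phagocytosis and cytokine release, and IFNγ is a classical inducer of Fcgr1.

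The samples carried the markers of Mϕ throughout. All 8 macrophage markers (Adgre1, Csf1r, Cd68, Itgam, Lyz2, Mertk, Cd14 and Ptprc) had a mean above 10 normalized counts, which are reads per gene divided by 1 size factor per sample. Lyz2 had the highest counts of them, from 54330 to 104000. T cell and NK cell markers stayed near 0, with summed levels of at most 21.3 for the 6 T cell genes and 27.2 for the 5 NK cell genes, and Ncr1 was at 0 in 7 of the 8 samples. B cell genes summed to between 53.8 and 278.2, and Ighm had the highest counts of them (from 36.4 to 271.2). The 6 mast cell or basophil genes summed to between 24.5 and 166.5, and Cpa3 had the highest mean of them, with Fcer1a at 0 in 5 samples. The 8 neutrophil genes summed to between 694 and 1007 in Ctrl and between 1110 and 1466 in Eff, against 1744 to 2072 in LPS and 1791 to 2501 in LPSEff. S100a8 had the highest mean of them, and S100a9 was higher than S100a8 in every Ctrl and LPS sample. Ngp went from 144.7 and 79.8 in Ctrl to 331.1 and 468.1 in LPS, and Ly6g did not exceed 19.4 in any sample. The 6 dendritic cell genes summed to between 1312 and 2576 without and between 6483 and 16025 with LPS/IFNγ, led by Ccr7. Xcr1 went from 36.2 and 52.6 in Ctrl to 119 and 635.7 in LPS, and Zbtb46 from 118.1 and 323.3 to 429.4 and 745.4. Flt3 reached 220.4 in LPS replicate 2, Clec9a did not exceed 13.2, and Cd209a was highest in Ctrl replicate 2, at 8.1. Neutrophils, NK cells, B cells and mast cells express some of the 6 genes. The part of all these markers, the dendritic cell genes included, in the values below was not tested.

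The summed level of the fibroblast markers was higher after the co-culture. The 12 fibroblast genes summed to 108.5 and 173.5 in Ctrl, 521.2 and 693.6 in LPS, with 1853 and 3767 for Eff and 5558 and 4938 for LPSEff. Of these genes, 10 had a mean of at least 10, and none was at 0 in all samples. Col1a2 had the highest mean, at 7.62 and 39.9 in Ctrl against 582 and 1107 in Eff. Not every marker followed the sum. Pdgfrb measured 245.7 and 244.7 in LPS against 82.3 and 157.4 in LPSEff, and Thy1 26.7 and 36.4 in Ctrl against 21.9 and 29.6 in Eff. In bulk RNA, a change in the share of cells and a change in RNA per cell cannot be told apart.

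Of the 6 genes, 4 sit in a single stretch of 276.0 kb on chromosome 1 in the build GRCm39. In this stretch Fcgr2b (chr1:170786186-170804177), Fcgr3 (chr1:170878738-170893549) and Fcer1g (chr1:171057141-171062219) lie on the minus strand and Fcgr4 (chr1:170846466-170857330) on the plus strand. The other 7 protein-coding genes within the stretch separate Fcgr3 from Fcer1g. Fcgr1 (chr3:96190225-96201338) and Fcrls (chr3:87156616-87181827) lie on the minus strand of chromosome 3. Fcrls is listed as Fcrl2 in this annotation release, and the RefSeq promoter sequence of Fcrls (GRCm38.p6) was found unchanged within that gene, at chr3:87170782-87171081 of GRCm39.

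**Figure D1:**
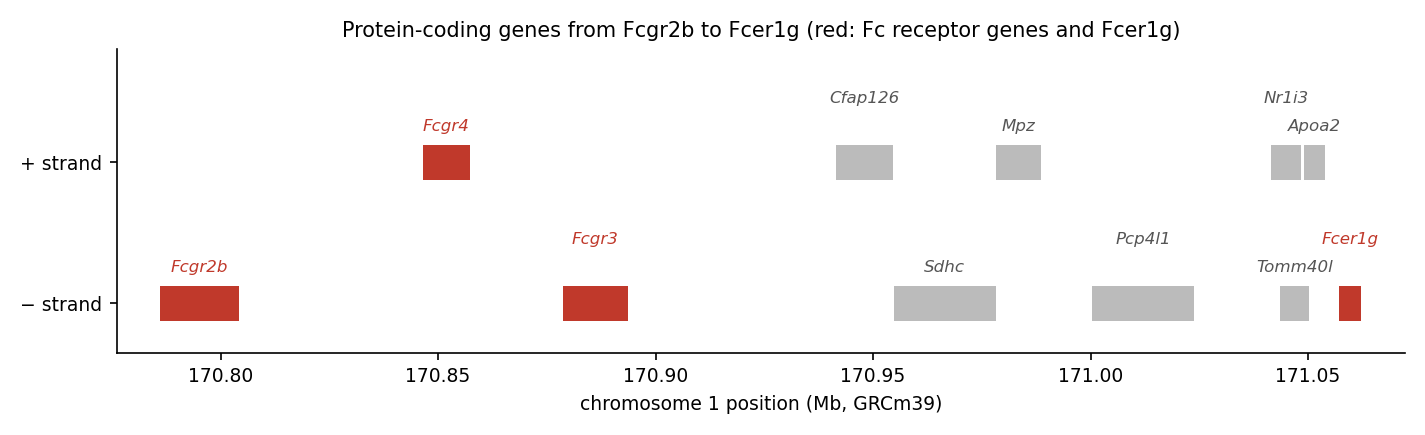
Map of the protein-coding genes around the receptor genes on chromosome 1, with the position in Mb (GRCm39) on the x axis and the strand on the y axis. Red bars are Fcgr2b, Fcgr4, Fcgr3 and Fcer1g, and grey bars are the other genes.

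Fcgr2b and Fcgr3 encode closely related extracellular domains, and reads from identical stretches cannot be assigned to 1 of them. Of the 1496 stretches of 50 bases (the number of sequencing cycles) in the reference transcript of Fcgr3, 166 also occurred in Fcgr2b, which is 11.1% of them. In Fcgr2b these were 4.95% of 3354 stretches, and 298 more occurred at other genes or positions. Of the Fcgr2b stretches, 64 occurred within the gene span of Fcrls, none of them in its reference transcript. The reference transcripts of the remaining 4 genes had no such stretch. A read shortened by trimming can match in more places than this count shows. In addition, 355 exonic bases of Fcgr2b lie opposite exons of Gm38204, which had at most 11.6 normalized counts in any sample. The levels of Fcgr2b and Fcgr3 are therefore uncertain to the extent of these shared stretches.

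In naïve, unstimulated Mϕ, Fcgr3 and the chain Fcer1g were the most abundant of the 6 genes. Levels between genes are given as normalized counts per kb of the reference transcript. In Ctrl, the level per kb was 2333 ± 223 (SD, n = 2) for Fcgr3 and 1828 ± 128 for Fcer1g. Fcgr2b followed at 336 ± 22.5 and Fcgr1 at 254 ± 9.69 per kb. Fcgr4 (51.4 ± 22.1) and Fcrls (48.5 ± 21.3) were lowest and overlapped each other. With LPS/IFNγ, Fcer1g stood first and Fcgr3 second, at 3061 ± 786 and 1700 ± 202 per kb in LPS and at 3353 ± 65.4 and 2217 ± 504 in LPSEff, without overlap between the genes. In Eff, the levels per kb of Fcgr3 (2296 and 2998) and Fcer1g (2331 and 2115) overlapped, as did those of Fcgr2b (458 and 820) and Fcgr1 (528 and 373) in LPSEff. Fcgr2b, Fcgr1 and Fcgr4 followed in this order without overlap in LPS, at 632 ± 105, 407 ± 13.9 and 261 ± 42.5 per kb, and in Eff, at 369 ± 43.1, 210 ± 46.6 and 65.0. In LPSEff, Fcgr4 stood at 264 ± 8.33 per kb. Fcrls was lowest in the other 3 groups as well, at 22.1 ± 10.4 per kb in LPS, 18.1 ± 4.29 in Eff and 16.9 ± 3.72 in LPSEff.

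To see how inflammatory stimulation altered this receptor set, LPS was compared with Ctrl (naïve Mϕ) and LPSEff with Eff (efferocytic Mϕ). In naïve Mϕ 3 of the 6 genes rose and none fell, and in efferocytic Mϕ 2 rose and none fell, by limma at an adjusted p under 0.05 (edgeR called 3 and 2, DESeq2 3 and 3). Among all 16309 genes tested, 24.0% were called in naïve Mϕ (12.4% higher and 11.6% lower) and 19.7% in efferocytic Mϕ (10.7% higher and 8.95% lower). The values of the groups did not overlap for all 6 genes in naïve Mϕ and for 4 in efferocytic Mϕ, where this held for 59.3% and 59.9% of all tested genes. The median log2 fold change of the 6 genes was 0.70 in naïve and 0.67 in efferocytic Mϕ, against -0.01 and 0.01 over all tested genes. Rescaling the samples to equal totals lowered the median of all genes by 0.39 and 0.44 on the log2 scale, and the share of higher genes among those called went from 51.5% to 24.8% in naïve and from 54.6% to 21.8% in efferocytic Mϕ. Quantile normalization moved that median by -0.08 and -0.11 and gave shares of 44.5% and 43.9%. These scalings changed which members were called. At equal totals Fcgr4 rose while Fcgr3 and Fcrls fell in naïve Mϕ, and Fcgr4 rose while Fcgr3 fell in efferocytic Mϕ. With quantile normalization Fcgr4 rose and Fcgr3 fell in both, and Fcgr1 rose in efferocytic Mϕ. Relative to the median of all genes at equal totals, Fcgr2b stood at 0.91 and Fcer1g at 0.725 in naïve Mϕ. Fcgr1 stood at 1.08 in efferocytic Mϕ. The same values with quantile normalization were 0.54, 0.22 and 0.96.

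Fcgr4, the activating receptor for IgG2a and IgG2b, showed the largest change of the 6 genes. Its normalized counts were 85.7 and 45.7 in Ctrl, 294.9 and 371.7 in LPS, with 85.9 and 80.5 for Eff and 330.1 and 345.2 for LPSEff. All 4 stimulated samples lay above all 4 unstimulated ones, and the stimulated groups overlapped each other. The limma log2 fold change, on the log2(normalized count + 1) scale, was 2.38 ± 0.30 (SE) in naïve Mϕ (adjusted p = 0.00116) and 2.01 ± 0.30 in efferocytic Mϕ (adjusted p = 0.00301). In naïve Mϕ, 4.61% of all tested genes changed by more in either direction. Fcgr4 rose under every alternative tried in both comparisons, both scalings included, with adjusted p-values of at most 0.00801 in naïve and 0.0219 in efferocytic Mϕ.

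Fcgr1, the high-affinity receptor, was also higher with LPS/IFNγ. It measured 653.1 and 689.3 normalized counts in Ctrl, 1049 and 1101 in LPS, with 641.4 and 467.2 for Eff and 1394 and 986.1 for LPSEff. Every stimulated sample lay above every unstimulated one, and the LPSEff samples lay on either side of the LPS samples. In efferocytic Mϕ Fcgr1 rose by a log2 fold change of 1.10 ± 0.23 (limma adjusted p = 0.0123). This call was lost at equal totals (0.65, adjusted p = 0.0723), without Eff replicate 2 (0.87, adjusted p = 0.0883) and without LPSEff replicate 1 (0.85, adjusted p = 0.088), within a range of 0.000402 to 0.0883 over all alternatives. In naïve Mϕ the difference of 0.68 ± 0.23 did not pass the threshold (adjusted p = 0.0671), and it passed in 2 of 19 alternatives.

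Fcgr3, the most abundant receptor, did not share this direction. Its normalized counts were 3361 and 3847 in Ctrl, 2407 and 2847 in LPS, with 3548 and 4632 for Eff and 2875 and 3976 for LPSEff. LPS lay below Ctrl without overlap, whereas LPSEff and Eff overlapped. The log2 fold changes of -0.46 ± 0.23 in naïve Mϕ (limma adjusted p = 0.203) and -0.26 ± 0.23 in efferocytic Mϕ (adjusted p = 0.497) did not pass the threshold. The latter was -0.03 without LPSEff replicate 1 and -0.07 without Eff replicate 2. At equal totals they became -0.86 (adjusted p = 0.0114) and -0.71 (adjusted p = 0.0248), which relative to the median of all genes in that scaling was -0.45 and -0.28. With quantile normalization they were -1.16 (adjusted p = 0.00419) and -0.96 (adjusted p = 0.0104). Over all alternatives the adjusted p ranged from 0.00419 to 0.489 in naïve and from 0.0104 to 0.969 in efferocytic Mϕ, and passed the threshold in 4 and 2 of 19.

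Fcgr2b, the inhibitory receptor, was higher with LPS/IFNγ in both settings. It measured 1196 and 1088 normalized counts in Ctrl, 2402 and 1898 in LPS, with 1152 and 1360 for Eff and 1560 and 2791 for LPSEff. The stimulated samples lay above the unstimulated ones without overlap, and the LPSEff samples were the farthest apart. In naïve Mϕ Fcgr2b rose by a log2 fold change of 0.90 ± 0.28, just past the threshold (limma adjusted p = 0.0494). The call was lost with equal totals (0.50, adjusted p = 0.194), quantile normalization (0.45, adjusted p = 0.255) and all genes with a mean above 0 (adjusted p = 0.0682), and it held in 2 of the 8 fits that left out 1 sample, those without LPSEff replicate 1 or 2. In these 8 fits the adjusted p ranged from 0.0198 to 0.193, and over all alternatives from 0.00939 to 0.255. In efferocytic Mϕ the difference was 0.74 ± 0.28 (adjusted p = 0.108), and it passed the threshold in 4 of 19 alternatives, among them without LPSEff replicate 1 (1.16, adjusted p = 0.0311) and with DESeq2 (0.81, adjusted p = 0.0351), within a range of 0.0213 to 0.475 over all alternatives. Without LPSEff replicate 2 it was 0.32 (adjusted p = 0.475).

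Fcer1g, the chain that the activating receptors depend on, followed the same direction. Its normalized counts were 1839 and 1666 in Ctrl, 3469 and 2403 in LPS, with 2235 and 2028 for Eff and 3260 and 3172 for LPSEff. All stimulated samples exceeded all unstimulated ones, and the LPS samples spread the most. Fcer1g rose in naïve Mϕ by a log2 fold change of 0.72 ± 0.21 (limma adjusted p = 0.0401). The call was lost with equal totals (0.32, adjusted p = 0.337), quantile normalization (0.13, adjusted p = 0.739), genes with a mean above 0 (adjusted p = 0.0809) and only the compared groups in the fit (adjusted p = 0.109), and of the 8 fits that left out 1 sample it held in the one without LPS replicate 2 (0.99, adjusted p = 0.0176). The lowest log2 fold change of these 8 fits was 0.46, without LPS replicate 1. Over all alternatives the adjusted p ranged from 0.00288 to 0.739. In efferocytic Mϕ the difference was 0.59 ± 0.21 (adjusted p = 0.0878), and quantile normalization turned it to -0.06 (adjusted p = 0.894). It passed the threshold in 4 of 19 alternatives, among them without LPS replicate 1 (adjusted p = 0.045) or LPS replicate 2 (adjusted p = 0.0449), within a range of 0.00964 to 0.894 over all alternatives.

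Fcrls, the Fc receptor-like member, was the 1 gene whose Ctrl samples stood above those of all other groups. It measured 76.2 and 144.6 normalized counts in Ctrl, 33.6 and 67.0 in LPS, with 34.2 and 48.0 for Eff and 32.5 and 44.4 for LPSEff. Both Ctrl samples exceeded the other 6, which overlapped each other. Neither the log2 fold change of -1.13 ± 0.45 in naïve Mϕ (limma adjusted p = 0.109) nor that of -0.09 ± 0.45 in efferocytic Mϕ (adjusted p = 0.919) passed the threshold. At equal totals the former was -1.52 (adjusted p = 0.0219), or -1.12 relative to the median of all genes, within a range of 0.00471 to 0.448 over all alternatives, 3 of 19 of which passed. Leaving out 1 sample of Ctrl or LPS moved the log2 fold change to -0.67 without Ctrl replicate 2 and -0.64 without LPS replicate 1, and to -1.59 without Ctrl replicate 1 and -1.61 without LPS replicate 2. None of these passed the threshold (adjusted p from 0.06 to 0.448).

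**Figure D2:**
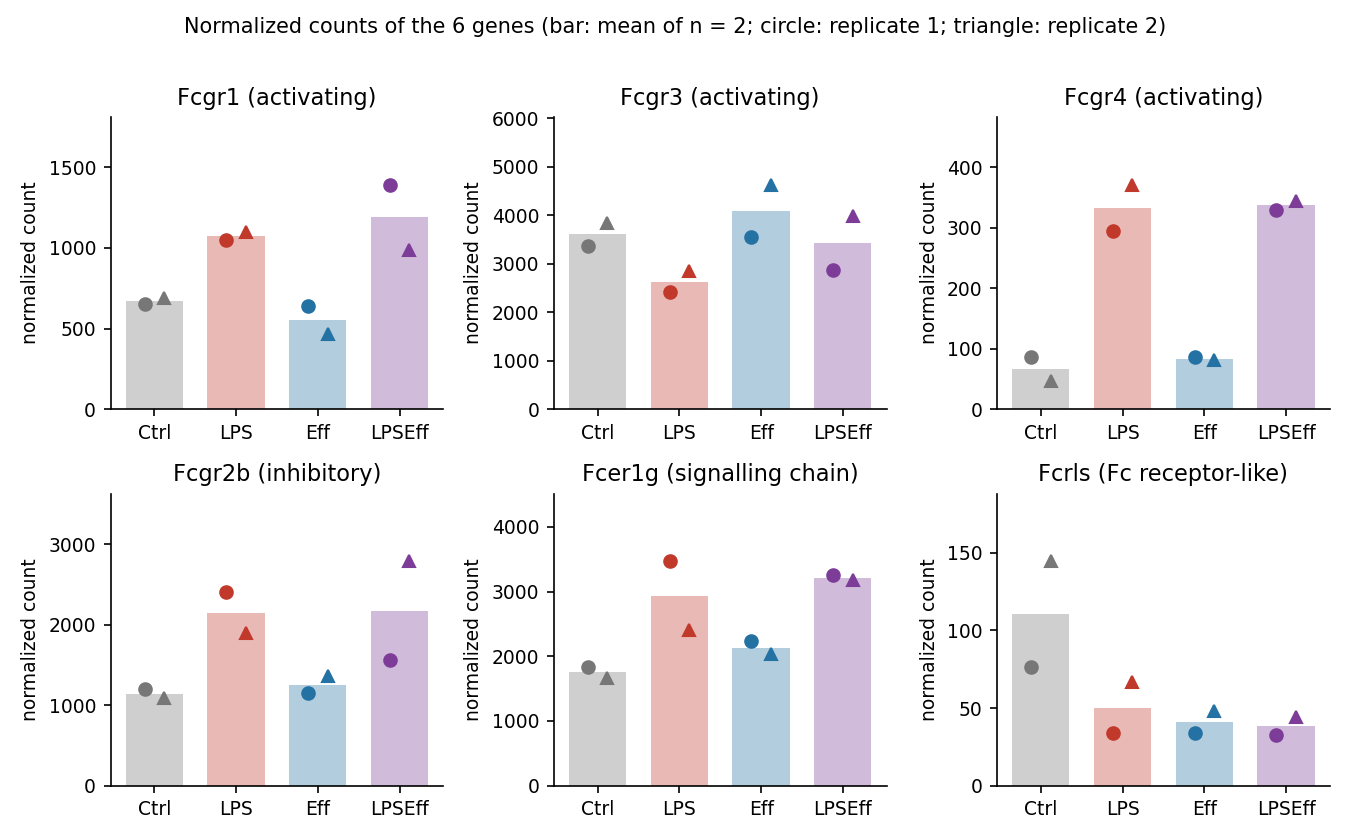
Normalized counts of the 6 genes in each sample, 1 panel per gene with its own y axis from 0 and the 4 groups on the x axis. Bars are means of 2 samples, circles replicate 1 and triangles replicate 2. Fcgr4 lies between 294.9 and 371.7 in the 4 stimulated samples and does not exceed 85.9 in the 4 unstimulated samples.

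The composition of the receptor transcripts differed with stimulation. The ratio of the summed activating receptors (Fcgr1, Fcgr3 and Fcgr4) to Fcgr2b, each per kb, is taken within a sample and so does not depend on the size factors. It was 7.09 and 8.72 in Ctrl, 3.10 and 4.57 in LPS, with 7.70 and 8.10 for Eff and 5.78 and 3.92 for LPSEff. The 4 stimulated samples thus lay below the 4 unstimulated samples, with LPS and LPSEff overlapping. With the number of unshared 50-base stretches in place of transcript length, the ratio lay between 2.95 and 5.50 with and between 6.88 and 8.49 without LPS/IFNγ. Fcgr3 made up 76.6% and 80.2% of the receptor transcripts per kb in Ctrl, 53.9% and 59.3% in LPS, with 78.0% and 82.4% for Eff and 59.9% and 63.8% for LPSEff. Fcgr4 went from 2.36% and 1.15% in Ctrl to 7.97% and 9.35% in LPS, and from 2.28% and 1.73% in Eff to 8.31% and 6.69% in LPSEff. The ratio of Fcer1g to the summed activating receptors per kb was 0.77 and 0.62 in Ctrl, 1.66 and 0.98 in LPS, with 0.89 and 0.65 for Eff and 1.28 and 1.03 for LPSEff. These ratios were not tested.

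To see how the receptors differed after the co-culture, Eff was compared with Ctrl and LPSEff with LPS. The dimerizer is stated only for the co-cultured groups, so uptake, co-culture and dimerizer cannot be told apart in these comparisons. These comparisons use the same samples as those above. None of the 6 genes was called by limma in either comparison, and edgeR and DESeq2 on the recovered reads also called 0, where 0.251% and 0.773% of all tested genes were called by limma. At an unadjusted p under 0.05, limma counted 1 gene (Fcrls) in Eff against Ctrl and 0 in LPSEff against LPS. The values did not overlap for 3 genes in the former, namely Fcgr1 and Fcrls (lower) and Fcer1g (higher), and for 1 gene in the latter, Fcgr3 (higher), against 34.1% and 36.3% of all tested genes. The largest difference was that of Fcrls, with a log2 fold change of -1.35 ± 0.45 in Eff against Ctrl (adjusted p = 0.541, past the threshold in 2 of 19 alternatives), a size that 3.24% of all tested genes exceeded. Without Ctrl replicate 2 it was -0.89 (adjusted p = 0.874), and without Ctrl replicate 1 -1.81 (adjusted p = 0.779). Fcgr1 differed by -0.29 ± 0.23, Fcer1g by 0.28 ± 0.21 and Fcgr4 by 0.40 ± 0.30 in that comparison (each with an adjusted p of 0.999). Without Ctrl replicate 2, the value for Fcgr4 was -0.04, and without Ctrl replicate 1 it was 0.85. That for Fcgr1 was -0.07 without Eff replicate 2 and -0.52 without Eff replicate 1. In LPSEff against LPS, the 95% interval was -0.67 to 0.73 for Fcgr4, -0.40 to 0.65 for Fcgr1, -0.68 to 0.61 for Fcgr2b and -0.33 to 0.64 for Fcer1g. Fcgr3 differed by 0.37 (95% interval -0.17 to 0.90, adjusted p = 0.677, and 0.14 without LPSEff replicate 2) and Fcrls by -0.32 (-1.34 to 0.71, adjusted p = 0.904). The summed fibroblast markers were higher in the co-cultured groups, and their part in these values was not tested.

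**Figure D3:**
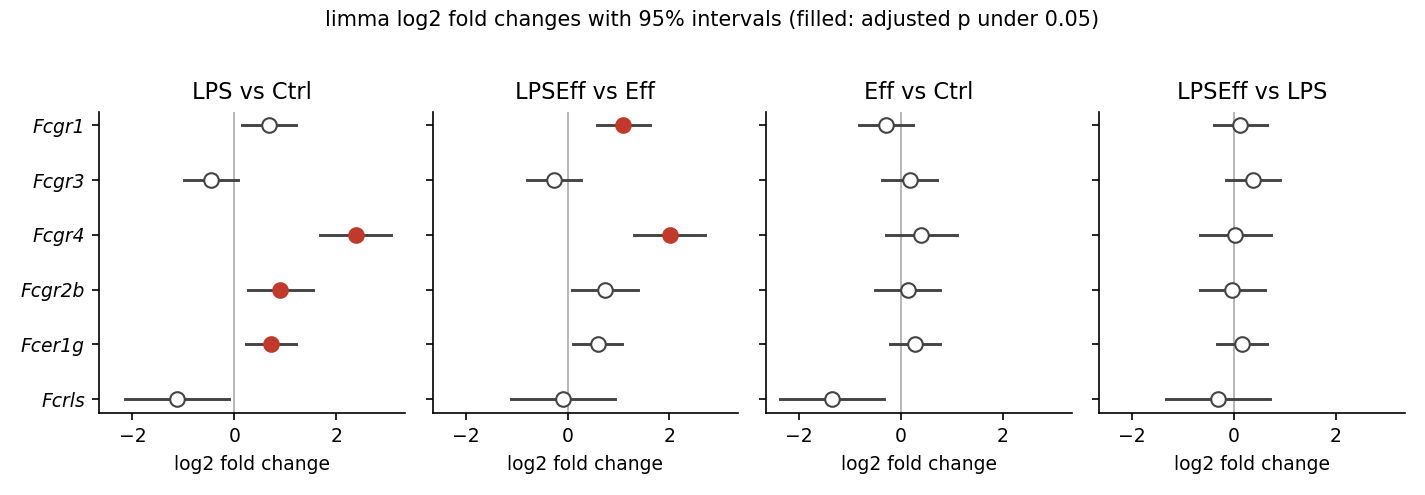
Log2 fold changes (x axis) of the 6 genes (y axis) in the 4 comparisons, with lines for the 95% intervals from limma. Filled points have an adjusted p under 0.05, which are 3 genes in LPS against Ctrl, 2 in LPSEff against Eff and 0 in the other panels.

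The effect of LPS/IFNγ was also compared between efferocytic and naïve Mϕ. For this difference between the 2 effects, limma called 0 of the 6 genes and 0% of all tested genes (311 at an unadjusted p under 0.05), and edgeR and DESeq2 also called 0 of all genes. None of the 6 reached an unadjusted p under 0.05. The difference, efferocytic minus naïve, was 0.42 for Fcgr1 with a 95% interval of -0.33 to 1.17, -0.38 for Fcgr4 (-1.36 to 0.61) and -0.17 for Fcgr2b (-1.08 to 0.74). It was 0.20 for Fcgr3 (-0.56 to 0.95), -0.13 for Fcer1g (-0.81 to 0.56) and 1.04 for Fcrls (-0.41 to 2.49). That Fcgr2b and Fcer1g passed the threshold only in naïve and Fcgr1 only in efferocytic Mϕ is therefore not shown to be a difference between them.

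The promoter windows were read for all 6 genes, and those of Fcgr1, Fcgr4 and Fcgr2b, receptors that were called in at least 1 comparison, are printed to show how they differ. Each window spans 250 bases before to 30 bases after the start of the reference transcript, read 5′ to 3′ on the strand of the gene from GRCm39. Capitals mark matches on either strand to the IFNγ-activated site (GAS, TTCNNNGAA), the core of the interferon-stimulated response element (ISRE, GAAANNGAA) and the core of the PU.1 site (GAGGAA). Among 21770 such windows of protein-coding genes, 8.40% held a GAS, 8.28% an ISRE core and 25.5% a PU.1 core. The printed windows are chr3:96201309-96201588 (minus strand) for Fcgr1, chr1:170846216-170846495 (plus strand) for Fcgr4 and chr1:170803667-170803946 (minus strand) for Fcgr2b.
Fcgr1: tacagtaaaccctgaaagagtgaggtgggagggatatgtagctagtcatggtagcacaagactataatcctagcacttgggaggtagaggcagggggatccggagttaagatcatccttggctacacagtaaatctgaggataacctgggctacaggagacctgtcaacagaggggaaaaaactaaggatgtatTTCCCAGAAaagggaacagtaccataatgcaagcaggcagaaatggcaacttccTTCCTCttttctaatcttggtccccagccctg
Fcgr4: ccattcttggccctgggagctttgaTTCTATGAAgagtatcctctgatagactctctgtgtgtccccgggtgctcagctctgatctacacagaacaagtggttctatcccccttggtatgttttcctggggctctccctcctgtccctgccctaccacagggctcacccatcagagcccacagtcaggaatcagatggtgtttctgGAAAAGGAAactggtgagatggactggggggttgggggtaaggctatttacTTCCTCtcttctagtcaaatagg
Fcgr2b: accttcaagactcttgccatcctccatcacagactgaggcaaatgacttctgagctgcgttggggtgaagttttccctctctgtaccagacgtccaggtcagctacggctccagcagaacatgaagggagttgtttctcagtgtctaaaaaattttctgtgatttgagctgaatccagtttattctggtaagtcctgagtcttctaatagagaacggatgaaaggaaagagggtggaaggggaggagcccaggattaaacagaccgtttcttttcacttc

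Fcgr1 held a GAS that starts 56 bases before the transcript start, and a PU.1 core across the start itself. Fcgr4 was the 1 member with matches to all 3 motifs. It held a GAS 225 bases and an ISRE core 44 bases before the start and a PU.1 core just after it. Fcer1g held 2 PU.1 cores, at 80 and 55 bases before the start. The windows of Fcgr2b, Fcgr3 (chr1:170887135-170887414) and Fcrls (chr3:87170879-87171158) lie inside the gene spans, and sequence further upstream was not read. In these windows Fcgr2b and Fcgr3 held none of the 3 motifs, while Fcrls held 1 PU.1 core. None of these matches overlapped another. A match describes the letters in this window only, and a link between motifs and changes was not tested.

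Genes that act downstream of the activating receptors changed in both directions. Of 23 genes of ITAM signalling, all tested, 8 rose and 3 fell in naïve Mϕ and 7 rose and 4 fell in efferocytic Mϕ, with medians of 0.13 and 0.15, where 24.0% and 19.7% of all tested genes were called. Over the 19 alternatives the number called in either direction ranged from 6 to 14 in naïve and from 6 to 16 in efferocytic Mϕ. It was 7 without Ctrl replicate 1 and 6 without Ctrl replicate 2 in naïve Mϕ, and in efferocytic Mϕ 7 without Eff replicate 1 or LPSEff replicate 2 and 6 without Eff replicate 2 or LPSEff replicate 1. Syk, the kinase that docks on the phosphorylated ITAM, had the highest mean of the list and went from 2782 and 2538 normalized counts in Ctrl to 7565 and 5879 in LPS. Its log2 fold change was 1.33 ± 0.19 (limma adjusted p = 0.00198) in naïve and 1.24 ± 0.19 (adjusted p = 0.00328) in efferocytic Mϕ. With quantile normalization Syk lost both calls (0.57, adjusted p = 0.0754, and 0.49, adjusted p = 0.126). The kinase Src (2.57 ± 0.23, limma adjusted p = 0.000227) rose in naïve Mϕ, as did the adaptor Lcp2 (1.71 ± 0.24, adjusted p = 0.0018). Lat2, an adaptor that organises signalling at the membrane, fell from 1824 and 1947 to 347.9 and 502.7, with a log2 fold change of -2.17 ± 0.21 (limma adjusted p = 0.000341). In efferocytic Mϕ, Src rose by 2.52 ± 0.23 (adjusted p = 0.000231), while Lat2 changed by -2.05 ± 0.21 (adjusted p = 0.000433) and Card9, which couples Syk to NF-κB, by -1.81 ± 0.35 (adjusted p = 0.0086). The call of Card9 was lost without Eff replicate 2 (-1.53, adjusted p = 0.06) and without LPSEff replicate 1 (-1.41, adjusted p = 0.0576).

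On the inhibitory side, 3 of 14 genes rose and 2 fell in naïve Mϕ, and 0 rose and 2 fell in efferocytic Mϕ, with medians of -0.02 and -0.11, against 24.0% and 19.7% of all tested genes called in either direction. Over the alternatives 2 to 9 of the 14 were called in naïve and 2 to 5 in efferocytic Mϕ. In naïve Mϕ 2 were called without Ctrl replicate 1, Ctrl replicate 2 or LPS replicate 2, and 3 without Eff replicate 1 or Eff replicate 2. Inpp5d encodes SHIP1, the phosphatase that FcγRIIb recruits, and its counts went from 1047 and 1395 in Ctrl to 433.3 and 501.7 in LPS, opposite in direction to Fcgr2b. Its log2 fold change was -1.37 ± 0.20 in naïve (limma adjusted p = 0.00195) and -1.54 ± 0.20 in efferocytic Mϕ (adjusted p = 0.00131). Dok2, an adaptor that restrains kinase signalling, changed by -2.02 ± 0.20 (adjusted p = 0.000369) and -2.47 ± 0.20 (adjusted p = 0.000132). Its relative Dok1 rose in naïve Mϕ (0.97 ± 0.23, adjusted p = 0.0172), as did the ubiquitin ligase Cbl (0.67 ± 0.19, adjusted p = 0.037). At equal totals neither was called (Dok1 0.57, adjusted p = 0.051, and Cbl 0.27, adjusted p = 0.23), nor without Ctrl replicate 1, Ctrl replicate 2 or LPS replicate 2, where the adjusted p lay between 0.0729 and 0.155. Cbl was also not called with quantile normalization (0.17, adjusted p = 0.469) or without Eff replicate 1 or Eff replicate 2. Over all 19 alternatives, the call was lost in 5 for Dok1 and in 9 for Cbl. Sirpa, the receptor for CD47, had the highest mean of this list, and its difference was -0.06 ± 0.20 in naïve (adjusted p = 0.875) and 0.07 ± 0.20 in efferocytic Mϕ (adjusted p = 0.846). With quantile normalization these became -0.91 (adjusted p = 0.0176) and -0.78 (adjusted p = 0.0348).

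Related signalling adaptors, and other receptors that signal through Fcer1g or such an adaptor, were read for comparison. Of 10 such genes 9 were tested, and 2 rose and none fell in both naïve and efferocytic Mϕ, with medians of 0.00 and 0.07. This was near the share of all tested genes called (24.0% and 19.7%), and over the alternatives 1 to 5 were called in each comparison. A single gene was called without Ctrl replicate 1 or LPS replicate 1 in naïve Mϕ, and without any 1 sample of Eff or LPSEff in efferocytic Mϕ. The 2 genes were Clec4e (Mincle), which pairs with Fcer1g, and its neighbour Clec4d. Clec4e had the highest mean of the list and went from 944.5 and 630.4 normalized counts in Ctrl to 19990 and 16910 in LPS, and from 827.2 and 555.4 in Eff to 23260 and 22490 in LPSEff. Its log2 fold changes were 4.57 ± 0.27 (limma adjusted p = 3.7e-05) and 5.07 ± 0.27 (adjusted p = 2e-05). Clec4d rose by 0.85 ± 0.20 (adjusted p = 0.0174) and 0.80 ± 0.20 (adjusted p = 0.0253). Both calls of Clec4d were lost at equal totals (0.45, adjusted p = 0.137, and 0.35, adjusted p = 0.244) and with quantile normalization (0.24, adjusted p = 0.479, and 0.02, adjusted p = 0.958). In naïve Mϕ its call was also lost without Ctrl replicate 1, Ctrl replicate 2 or LPS replicate 1, and in efferocytic Mϕ without any 1 sample of Eff or LPSEff. Over all 19 alternatives, the call of Clec4d was lost in 6 in each comparison.

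Among 13 other Fc receptor and Fc receptor-like genes, only 4 reached a mean of 10 and were tested. Trim21, the cytosolic antibody receptor, had the highest mean of the list and rose in naïve Mϕ by 2.84 ± 0.20 (limma adjusted p = 8.2e-05). It also rose in efferocytic Mϕ, from 76.2 and 91.7 normalized counts in Eff to 624.7 and 736.1 in LPSEff (limma adjusted p = 5.3e-05). Fcrlb rose in naïve Mϕ (1.93 ± 0.37, adjusted p = 0.00693). Fcgrt, the neonatal Fc receptor that recycles IgG, fell in naïve Mϕ (-1.08 ± 0.24, adjusted p = 0.0147), a call that was lost without Ctrl replicate 1 (-1.04, adjusted p = 0.0807), Ctrl replicate 2 (-1.11, adjusted p = 0.0668) or LPS replicate 1 (-0.90, adjusted p = 0.0731). In naïve Mϕ this list thus had 2 genes that rose and 1 that fell, and in efferocytic Mϕ 1 that rose, with medians of 0.82 and 0.62, where 24.0% and 19.7% of all tested genes were called. Over the alternatives 2 to 3 and 1 to 2 were called. In efferocytic Mϕ 2 were called without LPS replicate 1 or LPS replicate 2, and in naïve Mϕ 2 without Ctrl replicate 1, Ctrl replicate 2 or LPS replicate 1.

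The phagocyte NADPH oxidase produces the oxidative burst that Fcγ receptor ligation triggers. Of its 5 genes, 2 rose in naïve and 1 rose in efferocytic Mϕ, and none fell, with medians of 0.36 and 0.46, where 24.0% and 19.7% of all tested genes were called. Over the alternatives 1 to 2 and 1 to 3 were called, with 1 in naïve Mϕ without Ctrl replicate 1, Ctrl replicate 2 or LPS replicate 2, and 2 in efferocytic Mϕ without LPS replicate 1 or LPS replicate 2. Cybb, the catalytic subunit with the highest mean of the list, went from 6101 and 6612 to 18550 and 22530 in naïve Mϕ (log2 fold change 1.69 ± 0.27, limma adjusted p = 0.0033) and changed by 2.54 ± 0.27 in efferocytic Mϕ (adjusted p = 0.000524). Ncf1, its cytosolic organiser, rose in naïve Mϕ (1.00 ± 0.23, adjusted p = 0.0151), but not with quantile normalization (0.22, adjusted p = 0.465) or without Ctrl replicate 1 (adjusted p = 0.0893), Ctrl replicate 2 (adjusted p = 0.0582) or LPS replicate 2 (adjusted p = 0.07).

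The IFNγ receptor, its kinases and the transcription factors below it had the highest median of the 6 lists. Of 8 genes, 4 rose in naïve and 5 in efferocytic Mϕ and none fell, with medians of 1.21 and 1.20, where 24.0% and 19.7% of all tested genes were called. Over the alternatives 4 to 6 of the 8 were called in each comparison. Jak2, the receptor kinase with the highest mean, rose by 2.45 ± 0.32 (limma adjusted p = 0.00132) and 2.75 ± 0.32 (adjusted p = 0.000877). Irf1, a transcription factor induced by interferons, rose by 3.64 ± 0.24 (adjusted p = 6e-05) and 4.16 ± 0.24 (adjusted p = 3e-05). Irf8 rose by 2.04 ± 0.30 (adjusted p = 0.00231) and 1.74 ± 0.30 (adjusted p = 0.0056). Of the 63 tested genes of these 6 lists, limma called 0 in Eff against Ctrl (6 at an unadjusted p under 0.05), 0 in LPSEff against LPS (8) and 0 in the difference between the LPS/IFNγ effects (2). For these, edgeR called 0, 0 and 0, and DESeq2 2, 2 and 0.

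As a description, the genes most like each member over the 8 samples were named by Pearson r of log2(normalized count + 1) among genes whose mean reached 100. For Fcgr4 these were Tnfaip2 (r = 0.99), Fpr2 (0.99) and Fmnl2 (0.99), and for Fcgr1 Pfkfb3 (0.98), Rnf40 (0.97) and Oas3 (0.97). Fcer1g was most like Phlda1 (0.99), Gm28592 (0.99) and Prdx5 (0.99). Fcgr2b was closest to Pcgf3 (0.96), Ankrd11 (0.95) and Atxn2 (0.95), and Fcgr3 to Mcfd2 (0.98), Timp2 (0.97) and Ulk4 (0.97). The genes most like Fcrls were Tspyl2 (0.97), Fam118b (0.96) and Hsd17b7 (0.96). The samples share their groups, so genes that follow the same treatment reach a high r.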

How the data were processed

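Total RNA of 8 BMDM samples (4 groups of 2) was depleted of rRNA and sequenced in single-end runs of 50 cycles. Per the study's methods and the submitters' processing notes, the authors used cutadapt, Bowtie2, STAR (mm39), HTSeq with default parameters and DESeq2, with versions and annotation release not given in the sources used here. For each gene, the authors deposited 1 signal per sample, its reads over that sample's size factor. Whole reads were recovered from 100% of the values (tolerance 0.01), and 3 reads equal at most 5.71 normalized counts, a floor that covers counting error only. GENCODE vM39 named 54749 of the identifiers.

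Tests were made with limma 3.58.1 (R 4.3.3, mean-variance trend, log2 values with a pseudocount of 1, which understates changes of low genes) on the 16309 genes averaging 10 or more. One fit held all 4 groups (4 residual degrees of freedom), with Benjamini-Hochberg adjustment over all tested genes. All 6 members passed the filter. On the recovered reads, edgeR 4.0.16 and DESeq2 1.42.0 called 3991 and 3954 genes in LPS against Ctrl. Alternatives were other pseudocounts, filters, scalings, tools and sample sets, and the fits were tested on simulated data.

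Members and lists were chosen with earlier results of these data known. All 6 members were named, and of each list the called genes with the largest absolute log2 fold change (up to 4 per comparison) and the gene with the highest mean. For each member the 3 genes with the highest r were named. Some genes that this rule takes are not reported here. Genome sequence came from GRCm39. Protein sequences were not analysed here.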

Additional observations from a re-analysis of the deposited data

Results flagged for a closer look

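Fcgrt, the neonatal Fc receptor, was singled out because both of its Eff samples lay below both Ctrl samples, while both LPSEff samples lay above both LPS samples. It measured 184.7 and 176.4 normalized counts in Ctrl against 125.3 and 171.5 in Eff. With LPS/IFNγ it measured 75.0 and 96.5 without the co-culture and 148.8 and 156.1 with it. The difference between these effects was 1.13 on the log2 scale, and its test in limma gave an adjusted p of 1, so it did not pass the threshold.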

How the results depend on the processing

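The rise of Fcgr4 with LPS/IFNγ held under all 19 alternatives in naïve and in efferocytic Mϕ, while the counts of called members moved. In LPS against Ctrl, where 3 members were called, all 45925 genes with a mean above 0 gave 1, and leaving out 1 sample in turn gave fewer than 3. In LPSEff against Eff, where 2 were called, leaving out 1 sample gave 1 to 3. With a lone sample left in a group, the fit assumes that it varies like the other groups.

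A replicate block, with the replicate number as a term, called 6 members in LPS against Ctrl, 4 in LPSEff against Eff and 1 in Eff against Ctrl, and edgeR with the replicate block, chosen after seeing the data, gave the same counts of 6, 4 and 1. Of the 6 in LPS against Ctrl, Fcgr3 (-0.46, adjusted p = 0.0203 by the limma block) and Fcrls fell, whereas the fit without the block called no fall. The 1 in Eff against Ctrl was Fcrls, which was lower. In LPSEff against LPS and in the difference between the LPS/IFNγ effects the block called 0. Over all tested genes the limma block moved the calls from 3910 to 6717, from 3213 to 6033, from 41 to 436 and from 126 to 1137 in the 4 comparisons, and the edgeR block gave 6663, 6314, 429 and 1233. The differences between replicates 1 and 2 correlated between groups over genes with r from 0.40 to 0.60. No source states that equal numbers share a preparation, so the number was taken as a name only.

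Other counts over all tested genes that moved by more than 1.5 times were 5578 at equal totals in LPSEff against Eff. In Eff against Ctrl (41) there were 79 with a mean above 0, 20 with a mean of at least 50, 9 with only the compared groups, 14 by edgeR and 204 by DESeq2, and in LPSEff against LPS (126) 66 with only the compared groups and 368 by DESeq2.

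Equal totals turned Fcgr4 in LPSEff against LPS from 0.03 to -0.009, and quantile normalization turned Fcer1g in LPSEff against Eff to -0.057. For Sirpa in LPSEff against Eff (0.07), equal totals gave -0.378 and quantile normalization -0.784. The cause was not tested. Among values that did not pass the threshold, leaving out 1 sample at a time changed the sign of several log2 fold changes. In LPSEff against LPS these were Fcgr1 (-0.124 to 0.375), Fcgr2b (-0.453 to 0.386), Fcgr4 (-0.138 to 0.194), Fcer1g (-0.109 to 0.42) and Fcrls (-0.803 to 0.171). In Eff against Ctrl they were Fcgr3 (-0.019 to 0.365) and Fcgr4 (-0.043 to 0.849), in LPSEff against Eff it was Fcrls (-0.33 to 0.148), and in LPS against Ctrl Sirpa (-0.212 to 0.098). In the difference between the LPS/IFNγ effects they were Fcgr2b (-0.587 to 0.252), Fcgr3 (-0.038 to 0.43), Fcgr4 (-0.821 to 0.071) and Fcer1g (-0.392 to 0.138). Each fit had 1 sample fewer. Of all member log2 fold changes over all alternatives, 502 kept direction and side of the threshold, 23 lost it, 21 gained it and 18 changed sign.

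Leaving out 1 sample lowered the calls over all tested genes to 2076 in LPS against Ctrl, 1567 in LPSEff against Eff, and 0 in Eff against Ctrl and in LPSEff against LPS.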
